A study of Mus musculus with 2 samples.

Results

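Runx3 ChIP-seq peaks from splenic natural killer (NK) cells were examined at 3 loci that Runx factors are known to regulate in T cells: Zbtb7b, Cd4, and the neighbouring genes Cd8b1 and Cd8a, here called the Cd8 locus. ChIP-seq (chromatin immunoprecipitation followed by sequencing) reports where a protein sits on DNA. Members were the deposited peaks whose midpoint lay in chr3:89140000-89230000 (Zbtb7b, 90 kb), chr6:124780000-124850000 (Cd4, 70 kb) or chr6:71230000-71380000 (Cd8, 150 kb), all in mm9. The rule found 6 peaks of 19647 in the list. All 6 lay in the Zbtb7b window, while the Cd4 and Cd8 windows held 0 peaks each.

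Chromatin was precipitated with a home-made polyclonal serum to Runx3 for 1 library and with non-immune rabbit serum for the control library, and neither has a replicate. Both came from NK cells of wild-type ICR mice that had received IL-15 in complex with its receptor alpha chain, given 2 times with 2 days between, and no untreated cells were part of the design. The NK cells, 40000000 in number, were purified from spleen by negative selection and then sorted on NKp46, an activating receptor of NK cells. The peak list gives positions alone, with no score, height or read count, so read depth is unknown, and the control library was not used here beyond whatever part it had in the authors' peak calling. The list holds no expression, so the sorted cells were not checked against markers, and T cells left in the sort were not tested.

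Runx proteins bind DNA through the Runt domain, as a dimer with CBF-beta, and activate or repress nearby genes. In developing T cells they help set the choice between helper and cytotoxic fates. Runx complexes silence Cd4 through an element in its first intron, Runx3 supports Cd8 expression in cytotoxic cells, and Runx factors repress Zbtb7b through a silencer upstream of it. Zbtb7b encodes ThPOK, a zinc finger repressor that commits thymocytes to the helper fate and opposes Runx activity. Cd4 encodes the co-receptor for MHC class II, and Cd8a and Cd8b1 encode the alpha and beta chains of the co-receptor for MHC class I.

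The core RUNX recognition sequence was searched in promoters of the 4 genes as sequence context, because the peaks' own sequences were not used here (no mm9 genome was at hand). The promoters are RefSeq windows on GRCm38.p6, from 250 bases before to 50 after an annotated start, and their positions cannot be set beside the mm9 peaks. TGTGGT and TGCGGT were searched on both strands; they differ at 1 letter and cannot match the same bases. Zbtb7b had 2 promoter windows and Cd8a 1, and for Cd4 and Cd8b1 there was none in the table. The Zbtb7b sequences are shown because the peaks lie in that window, and the Cd8a stretch for its motif; capitals mark the motif, and the strand is minus for Zbtb7b and plus for Cd8a.
Zbtb7b, first window, the 250 bases before the start, chr3:89393379-89393628: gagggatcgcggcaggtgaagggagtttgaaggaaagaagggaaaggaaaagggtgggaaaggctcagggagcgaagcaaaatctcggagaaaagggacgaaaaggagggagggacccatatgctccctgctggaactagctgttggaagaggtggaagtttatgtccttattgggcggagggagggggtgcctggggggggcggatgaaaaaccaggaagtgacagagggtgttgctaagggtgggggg
Zbtb7b, second window, the 250 bases before the start, chr3:89387672-89387921: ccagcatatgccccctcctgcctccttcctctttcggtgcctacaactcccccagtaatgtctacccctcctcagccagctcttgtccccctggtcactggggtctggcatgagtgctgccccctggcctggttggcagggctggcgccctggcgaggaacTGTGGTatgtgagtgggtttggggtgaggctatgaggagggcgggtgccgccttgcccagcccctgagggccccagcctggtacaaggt
Cd8a, the last 30 bases of its window, after the start, chr6:71373447-71373476: ccccgaccctacacgcctcccccACCGCAc

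The second Zbtb7b window held 1 match, TGTGGT, whose first base lay 89 bases before the start. The first Zbtb7b window held no match to these letters in its 300 bases. The Cd8a window also held 1 match, TGCGGT read on the opposite strand and printed above as ACCGCA, beginning at base 44 counted from the start. Of 32851 promoter windows of this length in the table, 7362 (22.4%) held at least 1 match, so a match is common in promoters. A match is a description of the letters, not a bound site.

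Zbtb7b was the 1 locus of the 3 that carried Runx3 peaks. Its 6 peaks (exact Poisson 95% interval 2.20 to 13.1, which treats peaks as independent and covers counting error only) gave 66.7 peaks per Mb of window, against 5.44 per Mb over the span of chromosome 3. They covered 4063 bp, which was 4.51% of the window against 0.373% of chromosome 3. The surroundings were themselves denser than the chromosome: the 1 Mb centred on the window held 30 peaks, these 6 included.

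The first Zbtb7b peak, chr3:89153862-89154476, was 615 bp wide and lay 30.8 kb below the window centre. The second, chr3:89189370-89189790, was the narrowest at 421 bp and followed after a gap of 34.9 kb. Its midpoint lay 4.58 kb above the centre, so 1 peak stood in the lower part of the window and 5 in the upper part. The third, chr3:89195034-89196121, was the widest of the 6 at 1088 bp. The fourth, chr3:89196788-89197274, measured 487 bp and began 666 bp after the third ended. The next, chr3:89197423-89198331, measured 909 bp and was separated from the fourth peak by 148 bp. These 3 closely spaced peaks thus fell within 3298 bp, with both of the widest peaks of the locus at the ends. The sixth peak, chr3:89222074-89222616, was 543 bp wide and stood 23.7 kb beyond the preceding peak.

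With neighbours whose midpoints were at most 10 kb apart counted as one stretch, the 4 middle peaks formed a stretch of 8.96 kb, and the first and sixth stood alone. Stretches of 4 or more peaks made up 16 of 620 stretches and single peaks on chromosome 3 (2.58%), and 4.12% of those in the whole list. On chromosome 3, 8.70% of the peaks belonged to a stretch of 4 or more peaks, against 14.5% in the whole list.

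**Figure D1:**
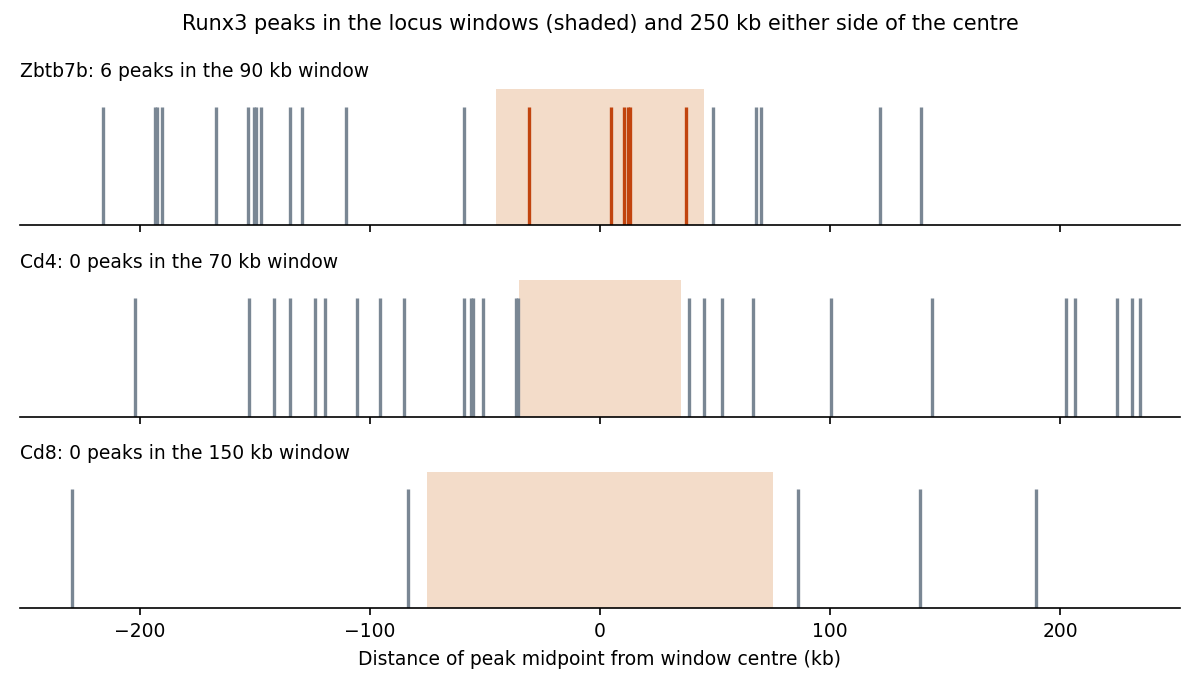
Midpoints of Runx3 peaks (vertical lines) by their distance in kb from the centre of the Zbtb7b, Cd4 and Cd8 windows, out to 250 kb either side. The shaded window of Zbtb7b holds 6 peaks (orange) and those of Cd4 and Cd8 hold 0; grey lines are peaks outside the windows.

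The Zbtb7b peaks included both narrow and wide ones by their rank in the list. Their median was 579 bp (lowest 421, highest 1088), against 592.5 bp over the 828 peaks of chromosome 3 and 604 bp over the list. The widest, of 1088 bp, was matched or exceeded by 7.51% of all peaks, and the peak of 909 bp by 15.2%. The narrowest, of 421 bp, was matched or exceeded by 92.4%. Of the 6 peaks, 3 were at or above the median width of the list, so as a group they were neither wide nor narrow.

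**Figure D2:**
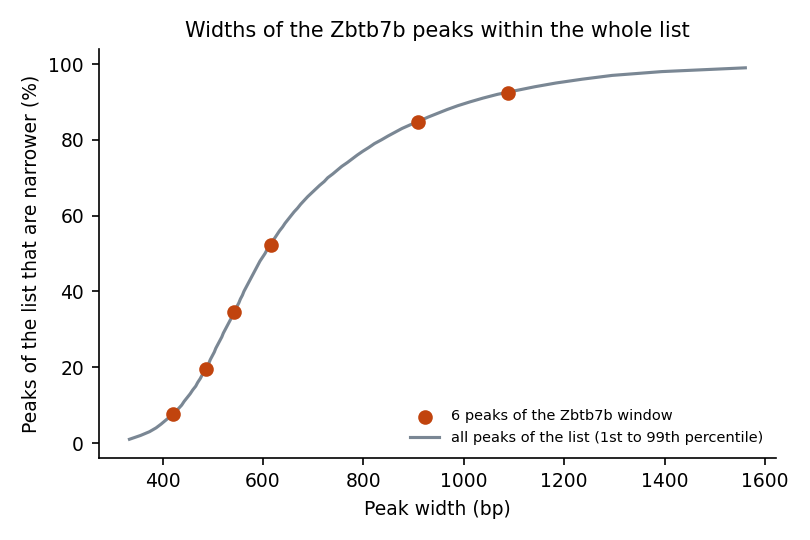
Width in bp of the 6 Zbtb7b peaks (points) on the distribution of all peaks in the list (line, 1st to 99th percentile), with the percentage of the list that is narrower on the vertical axis. The points run from 421 to 1088 bp and are spread along the curve.

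The question whether these loci differ from other stretches of their chromosomes was addressed by tiling each chromosome, between its first and last peak, with windows of the same length that continue the locus window in both directions. The shares below are ranks among windows, given with no test, since windows are not samples and clusters of peaks can extend over neighbouring windows. On chromosome 3, at least 1 peak was found in 23.8% of the 1688 other windows of 90 kb, and at least 6 in 18 of them (1.07%). Among the 401 windows that held any peak, the median was 1 peak and 4.49% held 6 or more. The Zbtb7b window therefore ranked near the top for chromosome 3, with 7 windows holding more peaks and 10 windows (0.592%) covered by peaks over at least as many bases. Over all autosomes, 2.17% of windows of 90 kb held as many.

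For the empty loci the same comparison gave no contrast. At least 1 peak was found in 23.8% of the 2084 other windows of 70 kb on chromosome 6, and 76.2% were as empty as the Cd4 window. Of the 971 other windows of 150 kb on chromosome 6, 35.7% held at least 1 peak and 64.3% held none, as the Cd8 window did. An empty window was thus the commonest outcome at both lengths, and a window drawn anywhere on chromosome 6 would more often than not look like the Cd4 or the Cd8 locus. The list contains only regions that passed an unstated threshold, so 0 peaks does not set a limit on Runx3 occupancy at Cd4, Cd8a or Cd8b1.

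**Figure D3:**
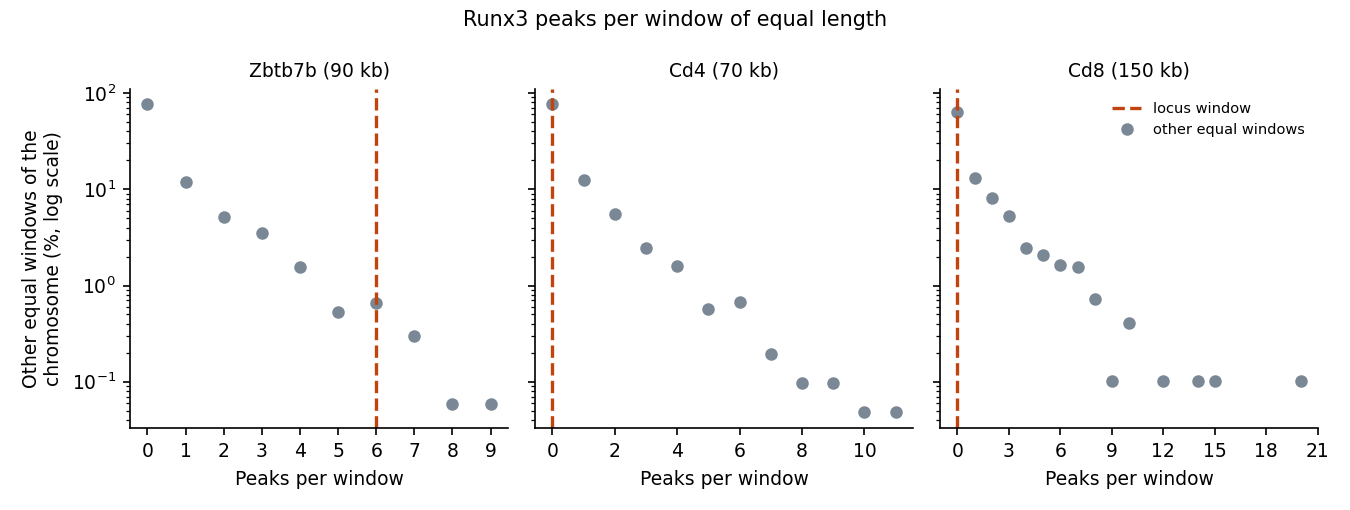
Share of the other equal windows of the chromosome (points, percent, log scale) by the number of Runx3 peaks they hold, with the locus window as a dashed line, for Zbtb7b (chromosome 3), Cd4 and Cd8 (both chromosome 6). The line lies at 6 for Zbtb7b, where 1.07% of windows hold as many or more, and at 0 for Cd4 and Cd8, the commonest value.

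Cd4 lay in a crowded part of chromosome 6, with 40 peaks in the 1 Mb centred on the window, a number reached by 0.694% of the other 1 Mb windows on the chromosome, whose median was 3. The 5 windows of 70 kb on either side of the Cd4 window held 35 peaks together, from 0 to 8 each, and 2 of those 10 were empty. The window just below held 8 peaks and the window just above held 5, so the Cd4 window stood empty between occupied ones.

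The peaks nearest to Cd4 lay at the very edges of its window. On the lower side, a peak of 1137 bp, chr6:124778764-124779900, ended 100 bp outside the bound. On the upper side, a peak of 509 bp, chr6:124853499-124854007, began 3.50 kb outside it. Moving each bound out by 10 kb raised the count to 3 peaks, so the count of 0 depends on where the rule places the bounds. The peak-free interval measured 73.6 kb, chr6:124779901-124853498, against a median gap of 26.9 kb between neighbouring peaks on chromosome 6. It was not rare on that scale: 285 of 1003 gaps on chromosome 6 (28.4%) were at least as long, and such gaps made up 89.7% of the chromosome's span. Within the 1 Mb centred on the Cd4 window it was long for its surroundings. Of the 39 gaps there, 2 were at least as long, itself included, and the median was 10.5 kb. Other crowded regions were compared after the values were seen. Of 44 other autosomal 1 Mb windows with at least 40 peaks, 40 (90.9%) contained a gap at least as long. That share uses only the longest gap of each window, so it cannot say how usual such a gap is among their gaps.

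Cd8 lay in a part of the same chromosome that was less crowded than that around Cd4, but fuller than the median. The 1 Mb centred on the Cd8 window held 8 peaks, against a median of 3 in the other 1 Mb windows, of which 34.7% held as many. The 10 flanking windows of 150 kb held 18 peaks together, from 0 to 4 each, with 1 of the 10 empty. Among all other windows of that length on chromosome 6, 64.3% were empty. The nearest peaks were one of 799 bp, chr6:71221317-71222115, which ended 7.88 kb below the window, and one of 1087 bp, chr6:71390317-71391403, which began 10.3 kb above it. The peak-free interval around Cd8b1 and Cd8a was 168 kb long. On chromosome 6, 147 of 1003 gaps (14.7%) were at least as long, and these gaps made up 79.3% of the span.

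Zbtb7b, too, lay in a crowded neighbourhood. The 1 Mb centred on it held 30 peaks, a number reached by 1.99% of the other 1 Mb windows on chromosome 3, whose median was 3. Its 10 flanking windows held 24 peaks, from 0 to 9 each, of which 3 were empty. The window with 9 peaks, which began 180 kb below the Zbtb7b window, was the fullest of the non-overlapping 90 kb windows in this tiling of the chromosome. The 6 peaks at Zbtb7b thus formed part of a wider peak-rich region, fuller below the window than above it. Just outside the bounds stood a peak of 479 bp that ended 14.0 kb below the window and one of 946 bp that began 3.81 kb above it; just inside stood the first peak, 13.9 kb from the lower bound, and the sixth, 7.38 kb from the upper one.

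**Figure D4:**
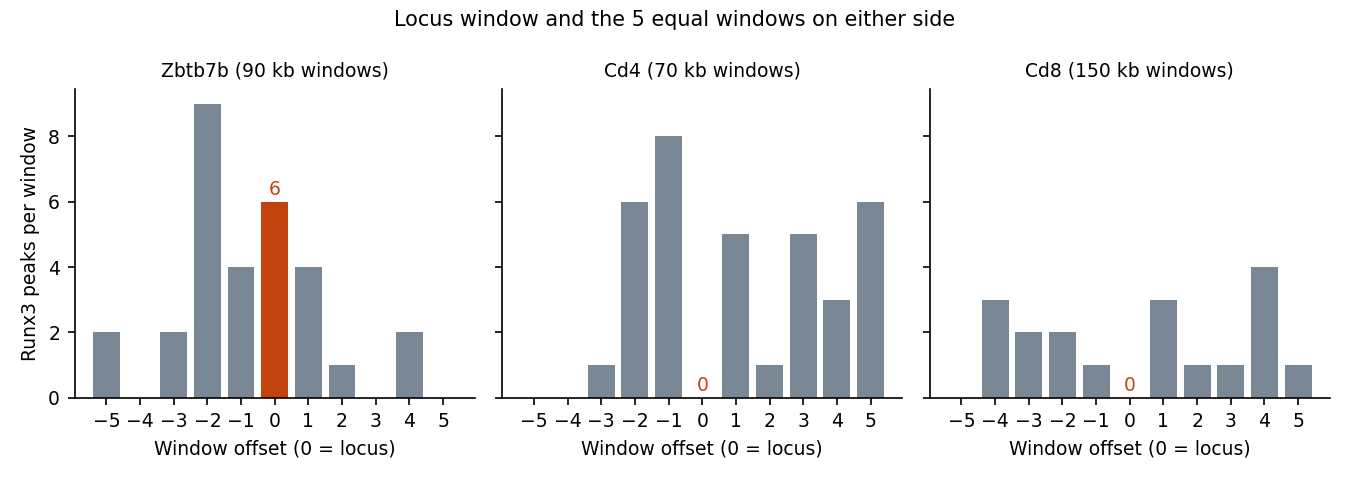
Number of Runx3 peaks in each locus window (orange, offset 0) and in the 5 windows of the same length on either side (grey). Zbtb7b holds 6 peaks beside windows of 4 and 4, Cd4 holds 0 between windows of 8 and 5, and Cd8 holds 0 between windows of 1 and 3.

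The windows are wider than the genes, and which gene a peak belongs to was not determined, since the gene table at hand is on GRCm38.p6. By gene order in that table, Zbtb7b is flanked by Dcst2, Dcst1 and Adam15 on one side and by Lenep, Flad1 and Cks1b on the other. Cd4 is flanked by Gpr162 and P3h3 on one side and on the other by Lag3, which encodes an inhibitory receptor for MHC class II, followed by Ptms. Cd8b1 and Cd8a are adjacent, with Gm1070 before the pair and Rmnd5a after it. A peak in the Zbtb7b window may therefore lie at a neighbouring gene, and its position relative to the Zbtb7b promoter and silencer was not analysed here.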

How the data were processed

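The data are 1 list of Runx3 peaks that the authors deposited, with 3 columns (chromosome, start, end) and no header. Per the labels' protocols, chromatin was fixed in 1% formaldehyde, sheared to about 200 bp and immunoprecipitated, and ELAND placed the 50 bp reads; per the submitters' processing notes, CASAVA 1.8.2 and the build mm9 are listed. How peaks were called, at which threshold and with what use of the control, is not given in these sources, nor is whether the list was reduced before deposit. Narrow or weak sites may therefore be missing, and one region may be listed as several peaks.

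Starts are printed counted from 1. A peak belonged to a locus by its midpoint. Equal windows exclude the locus window. Counts, gaps and ranks were computed with Python 3.11.15, numpy 2.4.6 and scipy 1.17.1, and window counting was tested on simulated lists. With 1 library per antibody, no test was made. The loci and windows were chosen with earlier results of these data known, and all peaks in the windows are named. RUNX motifs in peaks and other T cell genes, which need mm9 sequence or annotation, were not analysed here. Promoter sequences are from RefSeq.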

Additional observations from a re-analysis of the deposited data

How the results depend on the processing

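Of 46 recomputed values, 16 could not change because a window is empty (the share with at least as many peaks, always 100%, and counts from fewer peaks or a narrower window) and test nothing. Of the other 30, 21 stayed within 1.5 times the count or within the Wilson 95% interval of the share, and 9 moved, as given here. That interval treats windows as independent although their peaks cluster, so it is only a rough yardstick. Among the 21 are the counts at Cd4 and Cd8 after joining, which could not change either and test nothing. No peak reaches into those windows, and joining across gaps of up to 1000 bp cannot span them. Counting peaks by any overlap or joining gaps of up to 100 bp left 6, 0 and 0 peaks at Zbtb7b, Cd4 and Cd8, and joining up to 1000 bp left 4, 0 and 0. Keeping the wider peaks alone (no narrower than the list's median) left 3 at Zbtb7b. Windows widened by 10 kb on each side held 3 peaks at Cd4 and 1 at Cd8. The share of windows with as many peaks as Zbtb7b was 4.49% among windows with a peak and 2.17% over all autosomes. After joining up to 1000 bp it was 2.07%, now for windows with at least 4 joined regions, as Zbtb7b then held, rather than 6 peaks. The share of empty windows, a measure added after both loci were seen to be empty, was 73.8% at the length of Cd4 over all autosomes, and with the wider peaks alone 84.2% (Cd4) and 73.5% (Cd8), since fewer peaks remain. No paired analysis was possible because there is 1 library for each antibody. Weak sites below the unstated threshold cannot be counted.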

Other observations

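The 3 close peaks at Zbtb7b, chosen for description after their values were seen, form a single region of 3298 bp, chr3:89195034-89198331, when gaps of up to 1000 bp are joined. The counts that follow include the Zbtb7b region or set itself. Of 755 joined regions on chromosome 3, 3 (0.397%) were at least as wide, and of 17786 in the whole list 78 were (0.439%). As deposited, 8 of 826 sets of 3 consecutive peaks on chromosome 3 (0.969%) spanned no more than this, as did 1.08% of those in the list.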
